A study of Mus musculus with 2 samples.

Results

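Isl1, Mef2c, Gata4, Gata5, Gata6, Hand1 and Hand2 are transcription factor genes that act together in the second heart field, the mesoderm that adds cells to the poles of the forming heart. They were chosen by name, 7 of the 27998 genes counted in single mesodermal cells of mouse embryos at embryonic day 9.5 (E9.5). Both libraries came from Swiss Webster embryos in which Mesp1Cre, a driver active in early mesoderm, had switched on a ROSA26 GFP reporter (Rosa26-GFPflox/+), and live GFP-positive cells of the dissected pharyngeal apparatus and heart were collected by sorting. The group Ctrl carried these alleles alone (Mesp1Cre;Rosa26-GFPflox/+). The group cKO was also Tbx1flox/flox, so that Mesp1Cre should remove part of Tbx1 in the same lineage. Each group had 1 library, made from a pair of embryos, so the genotypes could not be tested against each other, and each comparison is one of libraries and not of conditions. The study lists more somites, the segments counted to stage embryos, for the cKO embryos than for the Ctrl embryos. Stage within E9.5 thus differed along with genotype. Intervals in parentheses are 95% and cover counting error only.

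The libraries held 7418 (Ctrl) and 10281 (cKO) cell barcodes with 132017331 and 162874391 unique molecular identifiers (UMIs), of which 6591 and 8969 cells with medians of 16854 and 14192 UMIs were kept. Cells were clustered without the 7 factors and without 38 further genes of their network, and clusters were named from markers of known populations, so names end in -like. Of 26 clusters, 18 could be named, and 11 populations with at least 50 cells in each library were compared. Levels are given as CPM, the UMIs of a gene for every 1000000 UMIs of the population in that library. The targeted gene, Tbx1, stood at 26.5 CPM over all kept cells in library Ctrl and 44.5 in library cKO. It went against its label in MLP-like cells (multilineage primed progenitors), at 43.4 in library Ctrl and 95.9 in library cKO, and was 112 and 99.7 in BrM-like cells. UMIs at the 3′ end cannot tell whether a Tbx1 transcript was intact or recombined, and the directions below are those of the library labelled cKO against the library labelled Ctrl. The libraries shared 15 barcodes, 12 of them among kept cells.

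Isl1 encodes a LIM homeodomain factor that marks second heart field progenitors and is turned down as they become heart muscle. Mef2c encodes a MADS-box factor of the same progenitors that stays on in muscle and is also used in endothelium, and an enhancer of Mef2c is known to be driven by Isl1 and Gata factors in the anterior second heart field. Gata4, Gata5 and Gata6 encode zinc finger factors of cardiac, endocardial and gut-associated mesoderm. Hand1 and Hand2 encode basic helix-loop-helix factors that pair with E proteins, Hand1 mainly in the outer curvature of the left ventricle and in pericardial mesoderm, Hand2 mainly in the right ventricle, outflow tract and lateral mesoderm.

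Isl1 and Mef2c both lie on mouse chromosome 13, while Gata4, Gata5, Gata6, Hand1 and Hand2 lie on chromosomes 14, 2, 18, 11 and 8. Because these genes are known to regulate each other, the 250 bases before the start of Isl1 (GRCm38.p6, RefSeq, chr13:116309689-116309938, minus strand) and before the most upstream of 3 listed starts of Mef2c (chr13:83503784-83504033, plus strand) were searched on both strands for the letters GATAA, bound by Gata factors, and CANNTG, the E-box bound by Hand factors with their partners. Both are printed 5′ to 3′ with every match in capitals.
Isl1: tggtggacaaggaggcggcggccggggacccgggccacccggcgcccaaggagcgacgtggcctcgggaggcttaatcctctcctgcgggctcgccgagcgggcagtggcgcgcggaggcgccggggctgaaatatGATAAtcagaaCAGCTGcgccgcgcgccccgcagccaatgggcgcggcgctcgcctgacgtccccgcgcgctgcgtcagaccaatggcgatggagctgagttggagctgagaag
Mef2c: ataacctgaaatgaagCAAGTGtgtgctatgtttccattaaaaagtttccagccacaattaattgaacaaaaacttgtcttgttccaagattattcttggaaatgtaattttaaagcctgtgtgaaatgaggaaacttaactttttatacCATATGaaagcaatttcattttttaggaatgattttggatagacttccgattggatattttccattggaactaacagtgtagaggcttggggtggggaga
The Isl1 stretch held 1 GATAA and 1 CANNTG match, and the Mef2c stretch held 2 CANNTG matches and 0 GATAA matches, with no overlap between matches. Of the other 2 listed starts of Mef2c, one had 2 GATAA and 0 CANNTG matches in the 250 bases before it and the other 0 and 1, so GATAA was met before 1 of the 3 starts. In all 32851 listed promoters the shares with a match were 22.6% for GATAA and 66.2% for CANNTG, so that single matches are common. A match is a description of the letters, and no binding was measured here.

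The 7 factors were spread over the 11 populations in different ways, as the plot of their levels shows. Mef2c was widest, passing the minimum of 10 CPM and 30 UMIs in a library in 11 of 11 populations, followed by Gata6 with 9 and Hand2 with 8. Isl1 passed in 7 populations, Gata4 in 6, Gata5 in 5 and Hand1 in 3. Paraxial mesoderm-like cells, which form somites, served as the population that should lack these factors other than Mef2c, a gene of somitic muscle as well. There, 6 of the 7 factors lay between 0.123 and 6.14 CPM over both libraries, and Mef2c stood at 19.6 and 18.4.

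**Figure D1:**
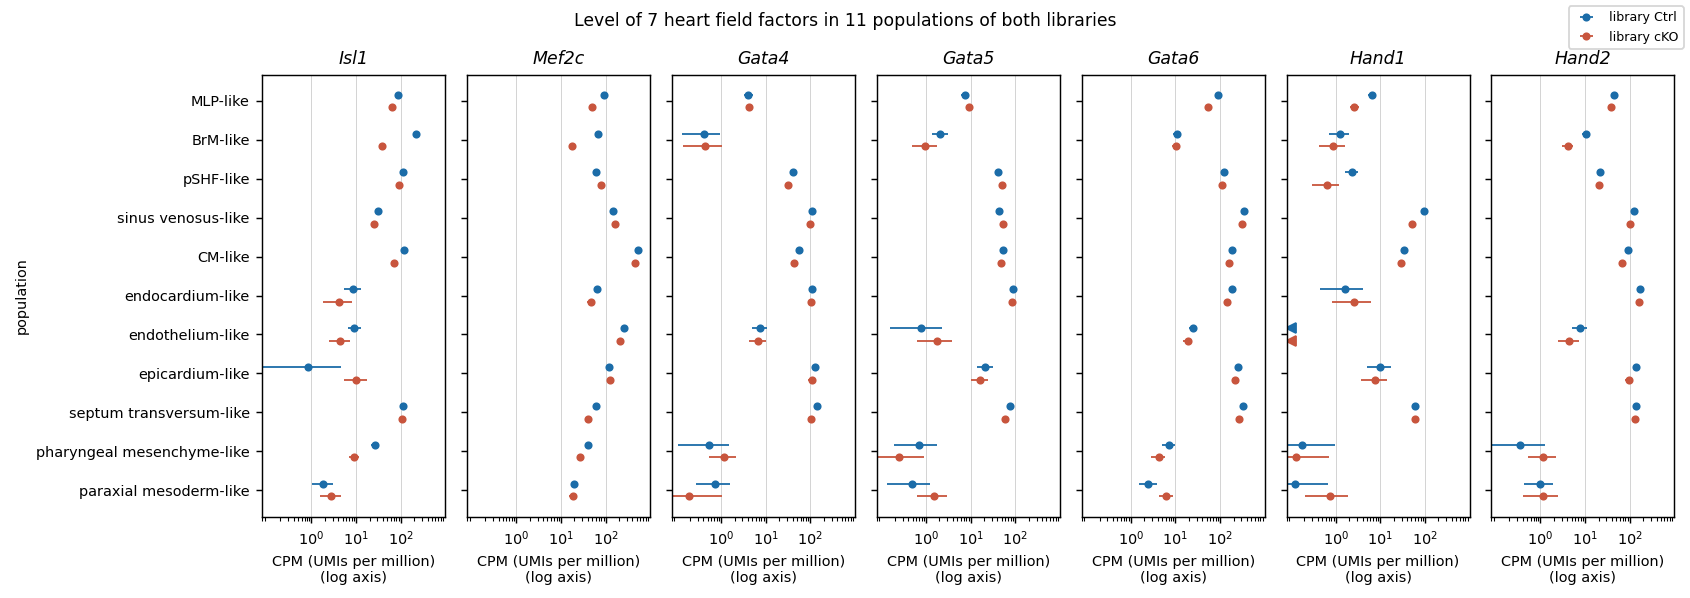
Level of each factor in CPM (log axis) in 11 populations of library Ctrl (blue) and library cKO (red), with exact 95% Poisson intervals that are cut off at the left edge. An arrow at the left marks 0 UMIs, as for Hand1 in endothelium-like cells of both libraries. Isl1 is low in endothelium-, endocardium- and epicardium-like cells, where Mef2c or the Gata factors are high.

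Among the 11 named populations, Isl1 was highest in BrM-like cells (branchiomeric muscle progenitors) of library Ctrl, at 216 (208 to 224) CPM. It stood at 121 (111 to 131) in CM-like cells (cardiomyocytes), 112 (107 to 118) in pSHF-like cells (posterior second heart field) and 109.9 (100.1 to 120.3) in septum transversum-like cells, the mesoderm next to the liver bud. The intervals of these 3 overlap, so their order was not resolved. MLP-like cells lay below them at 84.9 (80.7 to 89.2) in this clustering, but that place depended on the cells taken. With cells gated one by one on their marker UMIs, MLP-like cells held 131 CPM in library Ctrl. CM-like cells then held 108, pSHF-like cells 114 and septum transversum-like cells 69.8. Vascular and epicardial populations held little Isl1 in the clusters, with at most 9.18 CPM in library Ctrl among endothelium-, endocardium- and epicardium-like cells. With gating, endocardium-like cells held 52.6 and 57.9 CPM in libraries Ctrl and cKO. Gated epicardium-like cells held 12.9 and 6.38, and endothelium-like cells 5.64 and 2.48.

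Among the 11 populations compared, Mef2c was highest in CM-like cells, at 525 (505 to 546) CPM in library Ctrl. Endothelium-like cells followed at 261 (246 to 278) and sinus venosus-like cells at 150.4 (141 to 160.3). These intervals did not overlap. Epicardium-like cells came next at 118 (99.7 to 139), then MLP-like cells at 93.9 (89.5 to 98.4), with neighbours in this order apart beyond their intervals, and paraxial mesoderm-like cells were lowest.

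The Gata factors shared populations. Gata4 was highest in septum transversum-like cells at 142 (131 to 153) CPM in library Ctrl and in epicardium-like cells at 126 (106 to 147), whose intervals overlap. Gata5 was highest in endocardium-like cells at 87.3 (76.1 to 99.8) and in septum transversum-like cells at 76.2 (68.1 to 85), whose intervals overlap. Gata6 was highest in sinus venosus-like cells at 338 (324 to 353) and septum transversum-like cells at 321 (305 to 339), again with overlapping intervals. MLP- and BrM-like cells held almost no Gata4, with 4.05 and 0.413 CPM in library Ctrl, but MLP-like cells did hold Gata6 at 88.2 (83.9 to 92.6), much of it in a subset led by Wnt2 and Alcam.

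Hand2 was highest in endocardium-like cells at 168 (152 to 185) CPM in library Ctrl, with septum transversum-like cells at 142 (131 to 153) and epicardium-like cells at 137 (117 to 159) close behind, in intervals that overlap in this order. Hand1 was narrower, highest in sinus venosus-like cells at 97.1 (89.6 to 105) and then in septum transversum-like cells at 59.7 (52.6 to 67.6). This order depended on the cells taken. With cells gated one by one, Hand1 in library Ctrl was 7.48 in sinus venosus-like, 60.6 in septum transversum-like and 35.4 in epicardium-like cells. In endothelium-like cells 0 UMIs of Hand1 were found in either library. A limit of 3 counts, used here wherever a count is 0, is 0.765 and 0.87 CPM.

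Clusters left without a name held the factors too. Cluster c6, led by Msx2, Dkk1 and Wnt6, had 7 of the 8 markers on the list for somatic mesoderm with the anterior second heart field (SoM/aSHF), but 2 markers of epicardium against 1 of its own list among its 10 leading genes, and so kept no name. It held Hand2 at 152 (142 to 161) CPM in library Ctrl, Gata6 at 168 (159 to 179), Isl1 at 72.3 (66 to 79.1) and Hand1 at 58.7 (53 to 64.8), among the higher levels of both Hand genes. Cluster c9 had Barx1 of the foregut mesenchyme list and Foxf1 of the pSHF list among its leading genes. Its nearest list was somatic lateral plate, with 4 of 6 markers, followed by foregut mesenchyme with 3. In a finer clustering its subsets held pSHF markers at 629 and 722 CPM in library Ctrl. Cluster c9 held Isl1 at 253 (239.6 to 266) and Gata6 at 109 (100.1 to 118) but Mef2c at 12.5, so high Isl1 did not always go with high Mef2c.

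Across 23 clusters of library Ctrl, the Gata factors and Hand2 had like patterns, and Isl1 stood apart. Pearson's r of log2 levels, after adding 5 CPM, was 0.88 for Gata4 and Gata5, 0.87 for Gata5 and Gata6 and 0.83 for Gata6 and Hand2. Isl1 reached at most 0.33 with any other factor (Gata5), and 0.28 with Mef2c. These values are descriptions over clusters of 1 library, which share its depth. Among 4723 genes, those most like Gata4 were Prnp (0.92), Gata5 and Plagl1 (0.86), and those most like Gata6 were Zfpm1 (0.87), which encodes a Gata cofactor, Gata5 and Krt8 (0.86). Smtnl2 (0.89) was most like Gata5 and, after Bambi (0.89) and Rnd2 (0.88), among those most like Hand2. The genes most like Hand1 were Phlda2 (0.89), Tnc (0.86) and Alcam (0.84). Mef2c was most like Rcsd1 (0.86), Fam8a1 (0.81) and Cldnd1 (0.81), and Isl1 was most like Nnt (0.80), Pkig (0.74) and Rfxap (0.72).

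The comparison of the libraries asks how the factors stand when Tbx1 is targeted. Of 77 pairs of a factor and a population, 49 passed the minimum, and 4 of them were at least 2-fold lower in library cKO while 0 were at least 2-fold higher. These were Isl1, Mef2c and Hand2 in BrM-like cells and Isl1 in pharyngeal mesenchyme-like cells. Over 12 alternatives, Isl1 in BrM-like cells was at least 2-fold lower in each, whereas the log2 ratio of Mef2c there ran from -2.03 to 0.74 and that of Hand2 from -3.19 to 0.86, and over 11 alternatives Isl1 in pharyngeal mesenchyme-like cells ran from -2.09 to -0.53. Among all genes that passed the same minimum, the share at least 2-fold lower was 4.58% in BrM-like and 2.32% in pharyngeal mesenchyme-like cells, and the share at least 2-fold higher 1.15% and 0.873%. Across the populations these shares ran from 0.753% to 4.58% lower and from 0.542% to 1.21% higher. The interval of the ratio lay below 1 in 29 pairs and above 1 in 4, beside 32.4% and 16.6% of the pairs of any gene that passed and a population. The median log2 ratio over all genes was between -0.12 and -0.04 across populations.

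**Figure D2:**
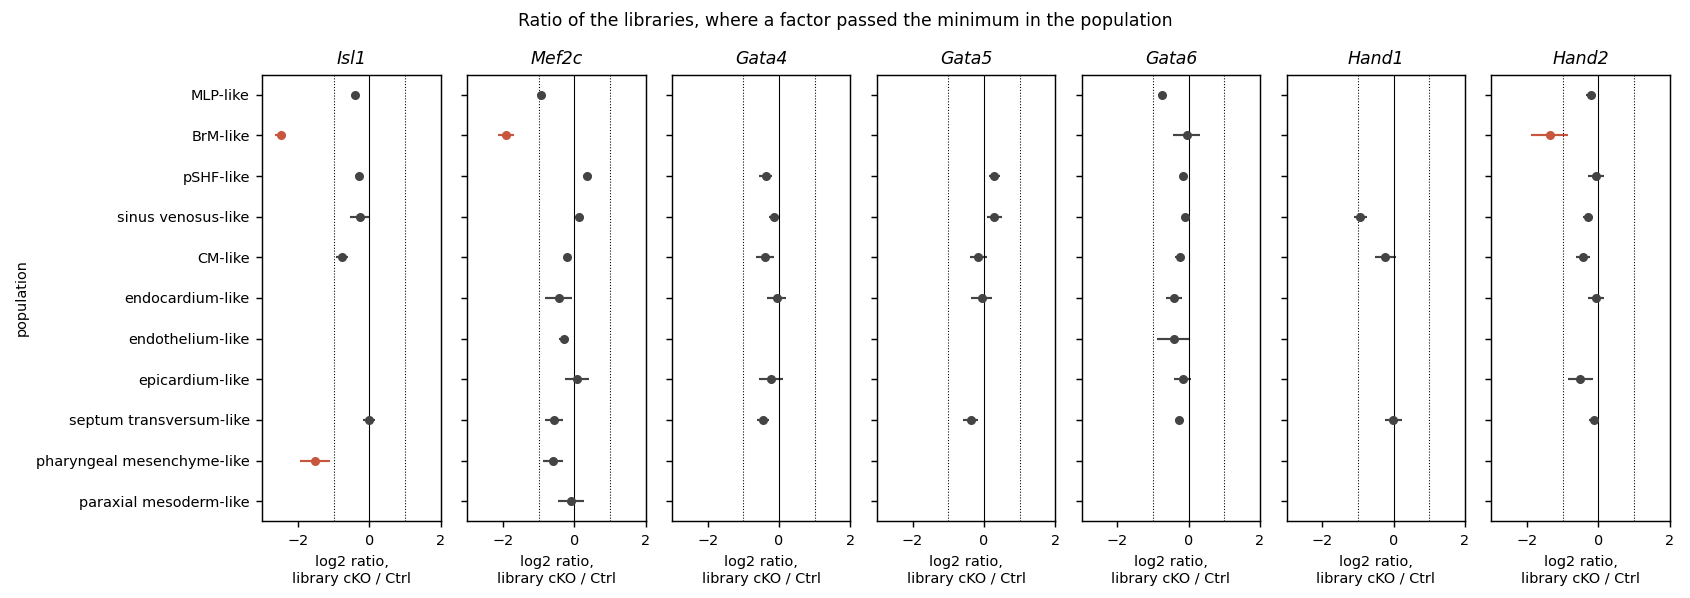
Log2 ratio of library cKO to library Ctrl for each factor in each population where it passed the minimum, with exact conditional 95% intervals. Red points are at least 2-fold lower, dotted lines mark 2-fold. In BrM-like cells Isl1 lies at -2.49, Mef2c at -1.90 and Hand2 at -1.36, and in MLP-like cells Mef2c lies at -0.93.

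In BrM-like cells Isl1 showed the widest gap of any factor that passed the minimum. It was 216 (208 to 224) CPM in library Ctrl and 38.3 (34.8 to 42.1) in library cKO, 5.63-fold (5.08 to 6.24) lower. Mef2c was 67.7 (63.2 to 72.5) and 18.1 (15.7 to 20.8), and Hand2 10.4 (8.67 to 12.4) and 4.04 (2.96 to 5.40). Of the 4 factors that passed the minimum here, 3 were at least 2-fold lower, beside 4.58% of all genes. In 6 of the 12 alternatives the count was 1, and Mef2c was higher in library cKO in those 6. Gata6, the other one, was 10.7 (8.89 to 12.7) and 10.2 (8.43 to 12.2), with an interval of the ratio that holds 1. The summed level of the 9 BrM markers was 1433 and 706 CPM and that of the 10 MLP markers 472 and 256, with every marker of both lists detected in both libraries. Among lists of other populations, sinus venosus markers were 53 and 11.8 CPM and septum transversum markers 11.9 and 2.20, while cranial mesenchyme markers were 7.76 and 19.4 and epicardium markers 26.6 and 45.5. The part of these lists in the results was not tested.

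In MLP-like cells the same factors were lower in library cKO by less than 2-fold in the clustering used here. Mef2c was 93.9 (89.5 to 98.4) CPM in library Ctrl and 49.4 (46.7 to 52.1) in library cKO, a log2 ratio of -0.93 (-1.03 to -0.82). Gata6 was 88.2 (83.9 to 92.6) and 52.3 (49.6 to 55.2), and Isl1 84.9 (80.7 to 89.2) and 64.7 (61.7 to 67.9), with log2 ratios of -0.75 (-0.86 to -0.65) and -0.39 (-0.49 to -0.29). Hand2 was nearest to 1 at 44.2 (41.2 to 47.3) and 38 (35.7 to 40.4), so that 0 of 4 factors were 2-fold apart, beside 2.71% of all genes at least 2-fold lower. These counts depended on the cells taken. Of 12 alternatives, 9 put 1 or 2 of the factors at least 2-fold lower, with the log2 ratio of Mef2c reaching -2.35, that of Isl1 -1.15 and that of Gata6 -1.08. Hand2 took either sign, from -0.39 to 0.50. The summed MLP markers were 613 and 566 CPM, the BrM markers 283 and 197 and the pSHF markers 326 and 203. Markers of some other populations were higher in library cKO, those of paraxial mesoderm at 81.1 and 159 and of pharyngeal mesenchyme at 103 and 179.8, and others lower, those of septum transversum at 30.5 and 12.9, of sinus venosus at 35.5 and 19.6 and of somatic lateral plate at 349 and 226. The part of these lists was not tested.

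A finer clustering, at resolution 2 and chosen after the values were seen, split both populations and showed where the factors lay. It gave 4 subsets of MLP-like and 4 of BrM-like cells, several of them led by genes of the cell cycle, as the plot of these subsets shows. In 3 of the 4 BrM-like subsets Isl1 was high without Mef2c. In library Ctrl these 3 held Isl1 at 226, 177 and 243 CPM, and in library cKO at 39.3, 32.4 and 39.5. Mef2c in the same subsets lay between 12.2 and 23.6 in library Ctrl and between 16.7 and 20.8 in library cKO, ranges that overlap. The gap in Isl1 was thus seen in each of them, and a gap of like size in Mef2c in none.

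The other BrM-like subset, with Rdh10, Crabp1, Hotairm1 and Meox1 among its leading genes, held most of the Mef2c of the population in library Ctrl. It had 160 cells in library Ctrl and 88 in library cKO. Mef2c was 332 (306 to 359) CPM in library Ctrl and 11.6 (5.97 to 20.2) in library cKO. Isl1 was 246 (224 to 269) and 50.1 (37.4 to 65.6), Gata6 48.6 (39.2 to 59.5) and 21.2 (13.3 to 32.1), and Hand2 47.5 (38.3 to 58.4) and 10.6 (5.29 to 18.9). All 4 factors were lower in library cKO here, with intervals that did not overlap between the libraries, as was so for 16.5% of all genes that passed the minimum in this subset, while 9.56% lay apart the other way. The summed cardiomyocyte markers were 155 and 39.5 CPM and the sinus venosus markers 47.5 and 5.78, and their part was not tested. After each cell was thinned to 5000 UMIs, an Isl1 UMI was found in 67.3% (59.3 to 74.6) of these cells in library Ctrl and 17% (9.87 to 26.6) in library cKO, and a Mef2c UMI in 64.7% (56.7 to 72.2) and 3.41% (0.709 to 9.64).

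The name of this subset depended on the clustering. Its cells held more of the MLP markers, 1287 and 811 CPM, than of the BrM markers, 585 and 284. Of 6 other clusterings tried, 5 placed between 83.9% and 99.6% of its cells in MLP-like clusters, and the one with presumed doublets kept placed 89.9% in BrM-like clusters. In those 5 clusterings Mef2c of BrM-like cells was slightly higher in library cKO, with log2 ratios from 0.16 to 0.28, and Hand2 had log2 ratios from -0.24 to -0.10 with intervals that hold 0. Gata6, which was under the minimum there, had log2 ratios from 1.30 to 1.55, and 1.30 with cells gated one by one. The Mef2c, Gata6 and Hand2 values of BrM-like cells thus rest on where these 248 cells are counted. Isl1 of BrM-like cells was at least 2-fold lower in all 6 of them.

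MLP-like cells held 1 subset of another kind, led by Wnt2, Alcam and Hoxc4, a gene of posterior identity, with Isl1 at 5.73 and 4.55 CPM and Mef2c at 8.60 and 9.29 in libraries Ctrl and cKO. It made up 303 of the 983 MLP-like cells in library Ctrl and 311 of the 1541 in library cKO and held the most Gata6 of the 4 subsets, at 132 and 116, so its share of the cells enters the Gata6 value of MLP-like cells. Its SoM/aSHF markers summed to 692 and 582 CPM. Its MLP markers summed to 205 and 248 CPM, below the 788 and 653 of the subset next to it in the same cluster, and in the 6 other clusterings at most 2.77% of its 614 cells were MLP-like. The other 3 subsets all held both factors, and Gata6 in them was 74.5, 63.3 and 44.9 in library Ctrl and 41.5, 31.3 and 26.8 in library cKO. Isl1 in them was 138, 132 and 85.9 in library Ctrl and 87.3, 93.2 and 45.8 in library cKO. Mef2c was 137, 164 and 101 against 64.6, 72.7 and 27.1. In each of the 3 both factors were lower in library cKO, and Mef2c by at least 2-fold, while Hand2 lay between 14.4 and 47.7 in library Ctrl and between 17 and 41.7 in library cKO.

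**Figure D3:**
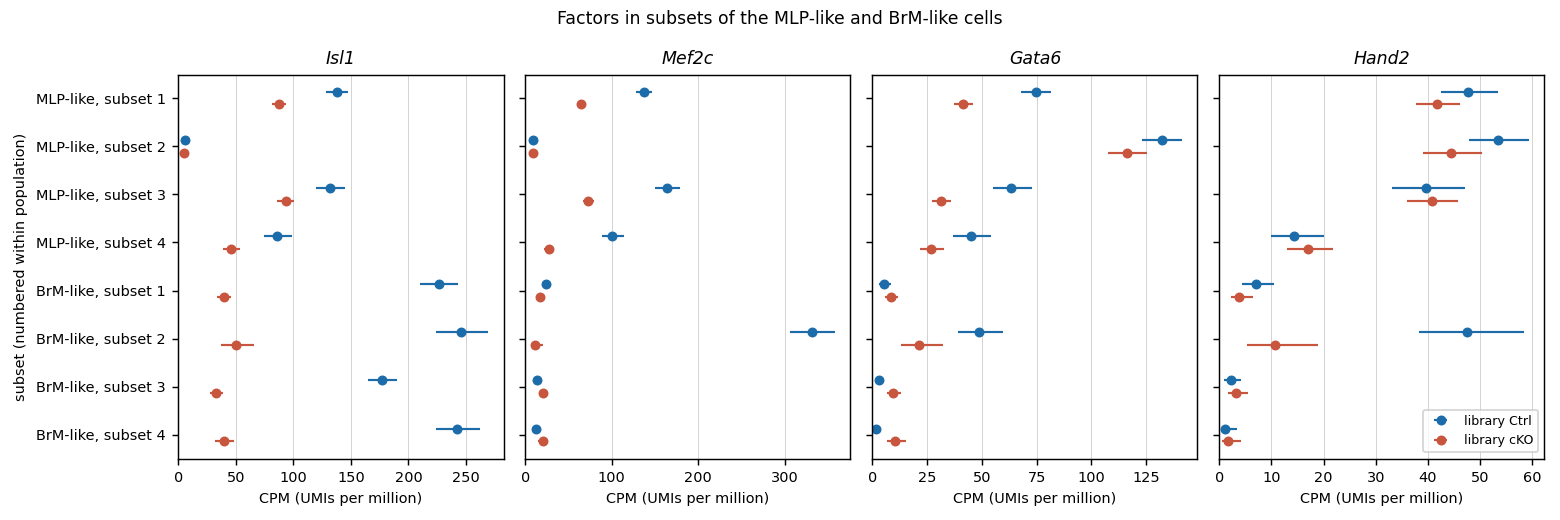
Levels of Isl1, Mef2c, Gata6 and Hand2 in CPM (axes from 0) in 8 subsets of the MLP-like and BrM-like cells, numbered within each population, in library Ctrl (blue) and library cKO (red), with exact 95% Poisson intervals. Mef2c stands out in BrM-like subset 2, the Rdh10 and Crabp1 subset, of library Ctrl, and Isl1 is lower in library cKO in all 4 BrM-like subsets.

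Counting MLP-like and BrM-like cells together removes the choice between these names, but not that of which other cells are counted with them. The Wnt2 and Alcam subset, whose cells were rarely MLP-like in the other clusterings, is part of the sum. The sum was added after the values were seen. In the 1685 and 2322 cells of libraries Ctrl and cKO, Isl1 was 137 (133 to 141) and 56.7 (54.3 to 59.1) CPM, a log2 ratio of -1.27 (-1.35 to -1.20). Mef2c was 83.5 (80.2 to 86.8) and 39.8 (37.8 to 41.9), a log2 ratio of -1.07 (-1.16 to -0.98). Over 9 alternatives the log2 ratio of Isl1 lay between -1.78 and -1.28 and that of Mef2c between -1.74 and -0.85. Both factors were thus lower in library cKO in each, but the sizes moved, and for Isl1 every alternative was further from 0 than the value reported. Gata6 was 57.3 (54.6 to 60.1) and 39.4 (37.4 to 41.5), with alternatives between -0.83 and -0.32, whereas Hand2, at 30.7 (28.8 to 32.8) and 27.6 (25.9 to 29.3), took either sign, from -0.34 to 0.66.

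The share of cells with a UMI gave the same direction after thinning. In BrM-like cells Isl1 was found in 57.3% (53.5 to 61) of cells in library Ctrl and 15.9% (13.4 to 18.6) in library cKO. In MLP-like cells it was found in 25.9% (23.2 to 28.8) and 21.6% (19.6 to 23.8), and Mef2c in 27.3% (24.5 to 30.2) and 17.6% (15.7 to 19.6). In paraxial mesoderm-like cells, the background, the shares were 0.484% and 0.313% for Isl1 and 9.69% and 8.46% for Mef2c. Before thinning, MLP-like cells had median depths of 17376 and 15770 UMIs, BrM-like cells 16124.5 and 13784 and paraxial mesoderm-like cells 18696 and 15604. Thinning left out 4 and 9 MLP-like and 11 and 5 BrM-like cells that were shallower. The unthinned shares were 81.2% and 31.9% for Isl1 in BrM-like cells, and 45.1% and 43% for Isl1 and 49.7% and 35% for Mef2c in MLP-like cells.

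In pharyngeal mesenchyme-like cells, where Isl1 is low, it was 26.2 (22.1 to 30.7) and 9.06 (7.08 to 11.4) CPM in libraries Ctrl and cKO, 2.89-fold (2.16 to 3.88) lower. Mef2c in the same cells was 39.5 (34.5 to 45) and 26.3 (22.8 to 30.1), a gap met in Xist cells, at 45 and 22, but not in Y cells, at 37.6 and 39.2. Populations gated on single-cell marker UMIs in place of clusters gave a log2 ratio of -0.53 for Isl1 there, the one nearest to 0 of 11 alternatives, so the 2-fold gap depended on how the cells were chosen. In these cells the summed sinus venosus markers were 73 and 22.1 CPM, the epicardium markers 101 and 54.5, and the population's own markers 841 and 741, and their part was not tested. Y cells made up 69.1% of the assigned cells in library Ctrl and 25% in library cKO, and within each set Isl1 was lower in library cKO, 8.68 against 37 in Xist cells and 7.24 against 23.3 in Y cells.

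In pSHF-like cells 6 factors passed the minimum and 0 of them were 2-fold apart, beside 0.753% of all genes at least 2-fold lower and 0.542% at least 2-fold higher. These cells were not uniform. Cluster c10, with Wnt2 and Osr1 among its leading genes, held Isl1 at 217 (206 to 229) CPM and Gata6 at 237 (225 to 249) in library Ctrl, whereas cluster c1, led by Wnt4, held Isl1 at 36.4 and Gata6 at 44.4. Library cKO showed the same split, with Isl1 at 182 and 32 and Gata6 at 231 and 33.7. Mef2c was higher in library cKO, 79.6 (75 to 84.4) against 61.9 (58.1 to 65.9), and so was Gata5, 49.9 (46.3 to 53.7) against 40.8 (37.7 to 44). The gap in Mef2c lay in cluster c10, at 127 and 183 in libraries Ctrl and cKO, and not in c1, at 14.4 and 10.7. The summed level of the 10 cardiomyocyte markers in pSHF-like cells was 122 and 306 CPM, and its part in the Mef2c value was not tested.

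In the unnamed cluster c9, Isl1 was 253 (239.6 to 266) and 235 (223 to 248) CPM in libraries Ctrl and cKO, but both Hand genes were higher in library cKO. Hand1 was 3.80 (2.35 to 5.81) and 16.2 (13.1 to 19.7), and Hand2 3.26 (1.93 to 5.15) and 13.5 (10.7 to 16.8). Both gaps were over 2-fold, beside 0.594% of all genes at least 2-fold higher and 1.62% lower in this cluster. In its subsets the summed cardiomyocyte markers were 26 and 31.8 CPM in library Ctrl and 53.5 and 60.5 in library cKO, and the BrM markers 272 and 346 against 217 and 254, and their part was not tested. In the unnamed cluster c6, Isl1 was higher in library cKO, 92.5 (84.8 to 101) against 72.3 (66 to 79.1), Gata6 was lower, 132 (123 to 142) against 168 (159 to 179), and the intervals of the ratio held 1 for Mef2c, Hand1 and Hand2.

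CM-like cells held Mef2c at 525 (505 to 546) CPM in library Ctrl and 452 (437 to 468) in library cKO, and less Isl1 in library cKO. Isl1 was 121 (111 to 131) and 71.1 (65.3 to 77.4), 1.70-fold (1.51 to 1.91) lower, under the 2-fold limit, below which 1.36% of all genes lay, with 0.604% at least 2-fold higher. The finer clustering showed where Isl1 sat in heart muscle. The subset led by Myl2 and Cited1, with Irx2 of ventricular muscle also among its leading genes, held Isl1 at 13 (7.44 to 21.1) and 7.89 (4.42 to 13). The subset led by Nrp2 and Dlk1 held it at 331 (298 to 366) and 204 (181 to 228), and the one led by Vsnl1 and Shox2, genes of the inflow tract, at 75.6 (64.9 to 87.4) and 55.3 (48.5 to 62.8). Isl1 in heart muscle was thus highest in the Nrp2 subset, and there it was lower in library cKO beyond the counting intervals. This subset was 68 of the 263 CM-like cells in library Ctrl and 85 of the 465 in library cKO, which enters the value over all CM-like cells. Its summed BrM markers were 312 and 173 CPM and its SoM/aSHF markers 1330 and 945, and their part was not tested.

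The Nrp2 subset also held the most Mef2c, at 755 (705 to 807) and 702 (659 to 746) CPM, and the most Hand2, at 215 (189 to 244) and 137 (119 to 158). Tdgf1, a gene of the outflow tract, stood at 236 and 153 there and at 10.6 and 6.31 in the Myl2 subset. Hand1 was found in both of these subsets and was near 0 in the Vsnl1 and Shox2 subset, at 2.10 and 5.60. The plot of the sinus venosus-like and CM-like subsets sets all 7 factors side by side.

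**Figure D4:**
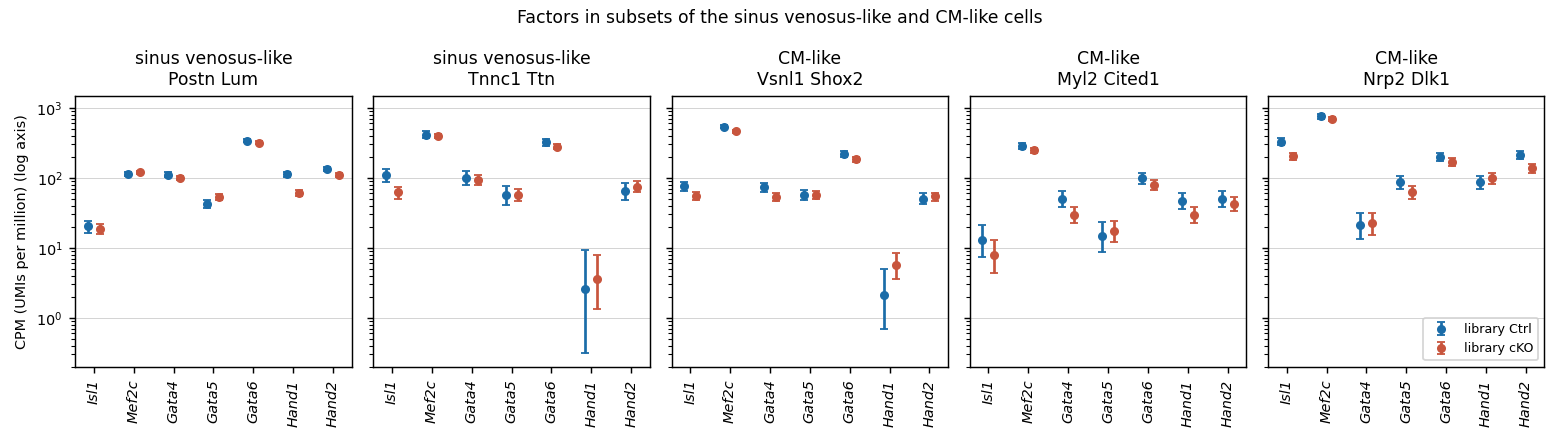
Levels of the 7 factors in CPM (log axis) in subsets of the sinus venosus-like and CM-like cells, each named by its 2 leading genes, in library Ctrl (blue) and library cKO (red), with exact 95% Poisson intervals. Hand1 is at 112 and 61.1 in the Postn and Lum subset and at 2.56 and 3.63 in the Tnnc1 and Ttn subset, while Isl1 and Mef2c are higher in the latter.

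Sinus venosus-like cells held 7 of 7 factors above the minimum, with 0 at 2-fold, where 1.37% of all genes were at least 2-fold lower and 0.56% at least 2-fold higher. Hand1 came nearest, at 97.1 (89.6 to 105) CPM in library Ctrl and 50.9 (46.6 to 55.6) in library cKO. Both the level and the gap depended on the cells taken. Among sinus venosus-like cells gated one by one, Hand1 was under the minimum, with 7.48 in library Ctrl and 8.44 in library cKO. The interval of that ratio held 1. The clustered cells split into subsets. A subset led by Postn and Lum, genes of mesenchyme, held 321 and 584 cells. A subset led by the muscle genes Tnnc1 and Ttn held 50 and 140 cells. Mef2c was 413 (369 to 461) and 399 (369 to 430.2) in the muscle subset and 114 (105 to 123) and 119 (112 to 127) in the other. Hand1 was 112 (103 to 122) and 61.1 (55.9 to 66.7) in the Postn and Lum subset, so the gap between the libraries was seen within it, but in its Xist cells alone Hand1 was higher in library cKO, as given further on. The summed pharyngeal mesenchyme markers of sinus venosus-like cells were 228 and 119, and their part was not tested.

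Septum transversum-like cells held less Mef2c, Gata4, Gata5 and Gata6 in library cKO, with Gata4 at 142 (131 to 153) and 103 (95.8 to 111) CPM and Mef2c at 59.5 (52.4 to 67.3) and 39.9 (35.3 to 44.9). Isl1 there was 109.9 (100.1 to 120.3) and 109 (101 to 117), with an interval of the ratio that holds 1. In endocardium-like cells the intervals of the ratio held 1 for Gata4, Gata5 and Hand2, with Hand2 at 168 (152 to 185) and 161 (143 to 179.6), while Gata6 was 189.6 (173 to 207) and 142 (126 to 160.3). In epicardium-like cells Hand2 was 137 (117 to 159) and 96.4 (80.2 to 115), and the intervals of Mef2c, Gata4 and Gata6 held 1. Every one of these differences was under 2-fold. Some marker lists were lower as well, with septum transversum markers at 198 and 144 CPM and SoM/aSHF markers at 779 and 548 in septum transversum-like cells. Endocardium markers were 2404 and 1810 in endocardium-like cells and 815 and 507 in endothelium-like cells. Other lists were higher, with foregut mesenchyme markers at 329 and 445 and pharyngeal mesenchyme markers at 50.6 and 80.3 in septum transversum-like cells. In endothelium-like cells pharyngeal mesenchyme markers were 108 and 135. The part of these lists was not tested. The shares of all genes at least 2-fold lower and at least 2-fold higher were 1.68% and 0.593% in septum transversum-like, 2.93% and 0.725% in endocardium-like and 1.82% and 1.21% in epicardium-like cells. In endothelium-like cells Mef2c was 261 (246 to 278) and 215 (199 to 231), and 0 of the 2.0 factors that passed were 2-fold apart, beside 3.05% of all genes lower and 0.735% higher.

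Each library held cells with Xist UMIs and cells with Y-linked UMIs. With a pair of embryos per library and both sexes present, each such set would be 1 embryo, which gives a look inside the pool without making replicates of a genotype. Isl1 in BrM-like cells was 201 CPM in Xist cells and 233 in Y cells of library Ctrl, and 36.5 and 38.9 in library cKO. Mef2c in MLP-like cells was 100.2 and 88.4 against 41.1 and 56.6, and Isl1 there 87 and 80.3 against 63.8 and 65. Both sets of one library thus lay on the same side of both sets of the other. The same was seen for Isl1 in CM-like cells, at 102 and 128 against 74.1 and 73.2, and for Mef2c in the Rdh10 and Crabp1 subset, at 328 (293 to 366) and 339 (302 to 379) against 8.35 (3.06 to 18.2) and 15.5 (3.19 to 45.3), the last from 17 cells.

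**Figure D5:**
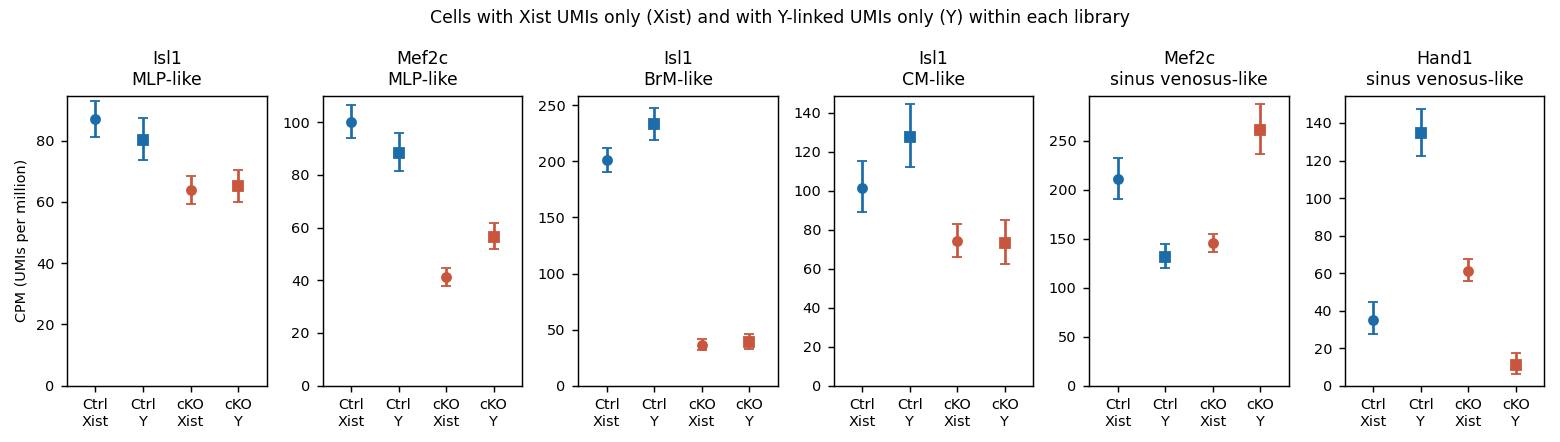
Levels in CPM (axes from 0) in cells with Xist UMIs only (circles) and Y-linked UMIs only (squares) of library Ctrl (blue) and library cKO (red), with exact 95% Poisson intervals. Isl1 and Mef2c in MLP-like cells and Isl1 in BrM-like and CM-like cells separate by library, and Mef2c and Hand1 in sinus venosus-like cells do not.

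Of the 49 ratios, 34 had the same sign in both sets of cells, and 3 had opposite signs with both intervals off 0, all of them in sinus venosus-like cells. Hand1 there was 35.1 (27.3 to 44.4) CPM in Xist cells and 135 (122 to 148) in Y cells of library Ctrl, and 61.4 (55.9 to 67.3) and 11 (6.39 to 17.6) in library cKO. The sets overlap across libraries, and Y cells made up 65.3% of the assigned sinus venosus-like cells in library Ctrl and 17.6% in library cKO. Within the Postn and Lum subset alone the same order was seen, at 45.5 (34.9 to 58.4) and 144 (131 to 158) against 71.4 (64.9 to 78.4) and 14.3 (8.15 to 23.1). Over all sinus venosus-like cells the log2 ratio of Hand1 between the libraries was -0.93. That gap was smaller than those between Y and Xist cells within a library, at 1.94 in library Ctrl and -2.48 in library cKO. Within Y cells alone the gap between the libraries was larger, at -3.62, and within Xist cells it was 0.81. Mef2c ran opposite, at 211 and 132 against 145 and 261.

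Co-detection was counted as the share of cells with a UMI of both factors after thinning, set against the product of the single shares, which is the share if detection were independent. In MLP-like cells, Isl1 and Mef2c were both found in 12.9% of cells (10.8 to 15.1), with a product of 7.08%, in library Ctrl. In library cKO they were both found in 7.05% of cells (5.82 to 8.45), with a product of 3.81%. The pair was thus met in fewer cells of library cKO, and in both libraries the share lay above the product. MLP-like cells mix subsets that differ in both factors. In library Ctrl the Wnt2 and Alcam subset had Isl1 in 1.99% and Mef2c in 5.30% of cells. The other MLP-like subsets had Isl1 in 28.2% to 43.3% and Mef2c in 31.5% to 39.8%. The part of this mixture in the excess over the product was not tested. Without thinning the pair was found in 35.2% (product 22.4%) and 23.1% (product 15.1%). In the Rdh10 and Crabp1 subset the pair was found in 48.7%, with a product of 43.6%, in library Ctrl, the highest share among the 8 MLP- and BrM-like subsets of that library. In library cKO it was found in 0 of 88 cells, where the limit of 3 counts is a share of 3.41%, with a product of 0.581%.

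The pSHF-like cells had the most pairs above the product, 17 of 21 in library Ctrl and 15 in library cKO. Isl1 and Gata6 were both found in 16.4% of cells (14.1 to 18.9), with a product of 11.2%, in library Ctrl, and in 13.2% of cells (11.1 to 15.5), with a product of 8.51%, in library cKO. Within cluster c10 alone, 1 pair of 21 in library Ctrl and 2 in library cKO lay above the product, and Isl1 and Gata6 were both found in 38% of cells (33 to 43.3), with a product of 36.8%, in library Ctrl. The excess over the product thus lay between the clusters more than within c10. In the unnamed cluster c6 Isl1 and Mef2c were both found in 9.48% of cells (6.79 to 12.8), with a product of 3.79%, in library Ctrl, and in 10.7% of cells (7.85 to 14.2), with a product of 6.54%, in library cKO.

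Hand1 and Mef2c tended to be found in different cells. In sinus venosus-like cells both were found in 3.73% of cells (2.06 to 6.18), with a product of 10.2%, in library Ctrl, and in 2.76% of cells (1.69 to 4.23), with a product of 7.84%, in library cKO. In the Postn and Lum subset alone the shares were 3.45%, with a product of 9.15%, and 2.94%, with a product of 7.09%. Without thinning, the shares in sinus venosus-like cells were 14.1% (product 23.9%) and 9.55% (product 17.9%). Both genes also differed between Xist and Y cells of this population, and the part of that in the shares was not tested. In cluster c6 the pair was found in 0.998% of cells (0.272 to 2.53), with a product of 3.46%, in library Ctrl, and in 1.79% of cells (0.723 to 3.65), with a product of 4.38%, in library cKO. In the Nrp2 and Dlk1 subset of heart muscle the share met the product, at 26.5%, with a product of 26.7%, and 25%, with a product of 23.7%.

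Several factors at once were most often found in septum transversum-, CM- and sinus venosus-like cells. Cells with 3 or more of the 7 factors made up 59.5% (52.9 to 65.8), 51.9% (45.7 to 58.1) and 49.9% (44.7 to 55) of these populations in library Ctrl and 47.4% (42.8 to 52.1), 42.5% (38 to 47.2) and 46.5% (42.8 to 50.2) in library cKO. In MLP-like cells the shares were 10.1% (8.29 to 12.2) and 6.01% (4.87 to 7.31), and in BrM-like cells 5.50% (3.92 to 7.47) and 0.773% (0.284 to 1.68). In paraxial mesoderm-like cells 0 of 413 and 0 of 319 cells had 3 or more, which by the limit of 3 counts allows shares of up to 0.726% and 0.94%.

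A list of 38 genes of the same network, with paralogs, cofactors, other heart field factors, signals and targets, was read beside the factors. In BrM-like cells 6 of 19 that passed the minimum were at least 2-fold lower in library cKO and 2 at least 2-fold higher, beside 4.58% and 1.15% of all genes. The median log2 ratio was -0.52 over the list and -0.11 over all genes. Without the minimum, 11 were lower and 4 higher, beside 11.2% and 5.4%, and at 1.5-fold 9 and 5, beside 14.4% and 3.45%. Fgf10, a growth factor of the anterior second heart field, was 59.9 and 1.49 CPM in libraries Ctrl and cKO, and Wnt5a, a Wnt ligand, 85.4 and 13. Lmo4, a LIM-only protein that competes for the LIM homeodomain cofactor Ldb1, was 203 and 67.4. Twist1, a basic helix-loop-helix partner of the Hand factors, was higher, at 75 and 191. Fgf10 was lower in all 4 BrM-like subsets, between 44.9 and 90.9 in library Ctrl and at most 2.06 in library cKO, and Isl1 but not Mef2c was lower in all of them.

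In MLP-like cells 5 of 21 were at least 2-fold lower and 1 at least 2-fold higher, beside 2.71% and 0.622% of all genes, with medians of -0.50 over the list and -0.12 over all genes. Without the minimum, 5 were lower and 5 higher, beside 10.9% and 3.86%, and at 1.5-fold 7 and 2, beside 12.8% and 2.09%. Wnt5a was 149 and 31.9 CPM in libraries Ctrl and cKO, and Aldh1a2, an enzyme of retinoic acid synthesis, 75.1 and 31.5. Wnt5a was at least 2-fold lower in 6 of the 8 populations where it passed the minimum and higher in 0, while Isl1 was so in 2 of the 7 where it passed. Actc1, a muscle actin, was at least 2-fold higher in 8 of the 10 populations where it passed and lower in 0, beside 0.542% to 1.21% of all genes higher in any 1 population. The summed level of the 10 cardiomyocyte markers, a list without Actc1, had log2 ratios from -0.45 in BrM-like to 1.32 in pSHF-like cells and was at least 2-fold higher in 2 of the 11 populations, pSHF-like and paraxial mesoderm-like cells, and its part was not tested.

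In pSHF-like cells 2 of 23 were at least 2-fold lower and 2 higher, beside 0.753% and 0.542% of all genes, with Myl7, an atrial myosin light chain, at 85.7 and 220.2 CPM in libraries Ctrl and cKO. In CM-like cells 3 of 28 were lower and 0 higher, beside 1.36% and 0.604% of all genes. Sema3c, a guidance signal of the outflow tract, was 64 and 21.2 there, and Myocd, a cofactor of muscle gene transcription, 199 and 95.2. In sinus venosus-like cells 2 of 25 were lower and 0 higher, beside 1.37% and 0.56% of all genes, with Bmp2, a secreted signal, at 76.4 and 29.3.

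Elsewhere the named network genes stood apart from the factors. In paraxial mesoderm-like cells, where 1.95% of all genes were at least 2-fold lower and 0.809% higher, Aldh1a2 was 139 and 25.1 CPM in libraries Ctrl and cKO and Foxc1, a forkhead factor of paraxial mesoderm, 151 and 74.1. Y cells made up 19.3% and 87.9% of the assigned cells of that population, and the part of this in the values was not tested. Foxc2 in endocardium-like cells was 104 and 50.1, and in epicardium-like cells Bmp2 was 59.1 and 27.2 and the chromatin factor gene Smarcd3 23.8 and 51.3, from 59 and 80 cells.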

How the data were processed

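The deposited values are raw UMI counts per gene and cell barcode. Per the labels and the study's methods, the authors counted them with Cell Ranger 3.1.0 on mm10 from droplet 3′ libraries and deposited filtered matrices without normalization. Cells with at least 1000 genes and at most 10% mitochondrial UMIs were kept. The highest Scrublet scores (scanpy 1.11.5) were removed at 0.8% per 1000 cells, because the automatic threshold marked 0% of library Ctrl. Clusters were made in Seurat 5.3.0 (resolution 1, 30 dimensions) without the factors, their network, or genes 2-fold apart between the libraries. A cluster needed at least 3 markers and more than 50% of a list for a name. A marker counted if found in at least 10% of its cells and at least 0.5 higher in log2 level than in the other cells. The list also needed a marker among the 10 leading genes of the cluster, and no other list could have more there. UMIs were summed per library and population and given as CPM, UMIs for every 1000000. Intervals are exact Poisson for levels, exact conditional for ratios and Clopper-Pearson for shares. The calculation of ratios was tested on simulated data. Named network genes were at least 2-fold apart with at least 50 CPM in a library, at most 4 per population; for each factor the 3 genes most alike over clusters were taken. The factors, lists and rules were chosen with earlier results of these data known, and some markers came from the study. A finer clustering at resolution 2, clusterings with random seeds 2 and 3, and the sum of MLP-like and BrM-like cells were chosen after seeing the data. Other alternatives changed the integration, the clustering pass and resolution, cell filters, doublets, scaling, thinning, cell sets by Xist and Y-linked UMIs, gating per cell, the minimum and the fold. A model that takes cells as replicates, as in the study, was not used, since each group has 1 library.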

Additional observations from a re-analysis of the deposited data

Results flagged for a closer look

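In several cases the difference between the libraries ran in opposite directions in a pair of populations, or in a pair of cell sets of 1 population. With 1 library per group, none of these differences was tested.

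Mef2c had a log2 ratio of library cKO to library Ctrl of -1.90 in BrM-like cells and 0.36 in pSHF-like cells. The value in BrM-like cells rests on the Rdh10 and Crabp1 subset, whose name depends on the clustering. Gata5 had a log2 ratio of -0.38 in septum transversum-like cells and 0.29 in pSHF-like cells.

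In sinus venosus-like cells, cells with Xist UMIs and cells with Y-linked UMIs gave opposite directions for 3 factors. The log2 ratios were -0.89 in Xist cells and 0.93 in Y cells for Isl1, -0.54 and 0.99 for Mef2c, and 0.81 and -3.62 for Hand1. Y cells made up 65.3% of the assigned cells of that population in library Ctrl and 17.6% in library cKO, and the part of this in the values was not tested.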

How the results depend on the processing

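The 49 ratios were computed again under 12 alternatives, 586 values in all. Of these, 465 lay within the counting interval of the value reported, 114 lay outside it, and 7, all from ratios of at least 2-fold, changed direction. Counting ratios nearer to 1 as well, 57 changed direction. Isl1 in BrM-like cells kept its direction and stayed over 2-fold lower, between -2.59 and -1.95. Isl1 in MLP-like cells lay between -1.15 and -0.23, and Mef2c there between -2.35 and -0.64. Mef2c in BrM-like cells became higher in library cKO with no integration (0.28), in the first clustering pass (0.23), at resolution 0.6 (0.18), with random seeds 2 and 3 (0.16 and 0.17) and with cells gated one by one (0.74), where Hand2 also became higher (0.86). Apart from the gating, most cells of the Rdh10 and Crabp1 subset were counted as MLP-like in these settings. For the gating the cause was not tested. Random seeds and the sum over both populations were chosen after seeing the data.

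Of the factors in MLP-like cells, 0 were at least 2-fold lower in the values reported, 2 with no integration or in the first pass, and 1 at resolution 0.6, with doublets kept, with seeds 2 and 3, in Xist cells, in Y cells and with gating. In BrM-like cells the count of 3 became 1 with no integration, in the first pass, at resolution 0.6, with seeds 2 and 3 and with gating, and 2 of the 7 factors were at least 2-fold higher with gating, Gata6 at 1.30 and Gata4 at 1.78, a factor under the minimum in the clusters (3.71 and 12.7 CPM with gating). Of the network genes, those higher in MLP-like cells went from 1 to 5 without a minimum and 2 at 1.5-fold. In BrM-like cells those lower went from 6 to 11 without a minimum, and those higher from 2 to 4 without a minimum and 5 at 1.5-fold.

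No paired analysis was possible because each group has 1 library and no test was made. With 1 library per group, embryo, litter, stage by somite count, handling and genotype cannot be told apart. Counts in small subsets limit what can be seen, as in the 88 cells of library cKO in the Rdh10 and Crabp1 subset.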
